A study of Mus musculus with 15 samples.

Results

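The comparison set E14 cells cultured with PD032 and an Aurora A kinase inhibitor together (labelled PD032+ Aurka inh, here the combination) against E14 cells cultured with FGF2/Activin. It takes 6 of the 15 RNA sequencing libraries of a study on the regulation of ERK signalling by mitotic kinases, 3 for each condition, chosen by their labels and not by any measured value. E14 is a wild-type mouse embryonic stem (ES) cell line. All cells had been kept in 2i/Lif, which held Lif at 4 ng/ml, the MEK inhibitor PD0325901 at 0.4 µM and the GSK3 inhibitor CHIR99021 at 3 µM, were embedded at 2000 cells per µl in Matrigel with reduced growth factors, and then received N2B27, a serum-free medium, plus the condition. The other groups, of 3 libraries each, were PD032 alone, Aurka inh alone and 2iLif. FAK is a second label for FGF2/Activin. The labels expand neither FAK nor PD032, and name neither the Aurora compound nor a dose or time for the conditions. N2B27 alone is not among the groups, so each condition is read against another supplemented medium. One cell line was used, and nothing says whether the libraries of a group came from separate cultures, so the p-values measure the spread between libraries, which may be technical.

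FGF signals through the kinases MEK and ERK and moves ES cells out of naive pluripotency, the state of the pre-implantation epiblast. PD0325901 blocks MEK, CHIR99021 blocks GSK3 and so stabilises β-catenin, and LIF acts through STAT3. FGF2 and Activin A are the growth factors used to hold cells in the formative or primed states of the later epiblast. That epiblast is a polarised epithelium that forms a lumen, and Matrigel culture lets ES cells build a comparable structure. Aurora A is a kinase of the mitotic spindle and centrosome.

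The combination libraries held 21843737, 19304585 and 24202544 counts, and the FGF2/Activin libraries 15234243, 15678010 and 15703321 counts. Replicate 2 of the combination stood apart: the chi-square per degree of freedom of its counts was 14.99 against replicate 1 and 9.48 against replicate 3, while replicates 1 and 3 gave 4.91 and pairs of FGF2/Activin libraries 1.23 to 1.54. Means over 3 libraries include it, and values without it are given where leaving it out changes a call that is described. The sample descriptions of the 3 inhibitor groups follow one naming style and those of 2iLif and FGF2/Activin another. What the style stands for is not stated, so any handling difference that goes with it cannot be told apart from the contrast of media. The first principal component of all 15 libraries, with 52.2% of the variance, ran from 2iLif (-84.5 to -83.8) through the combination (-45.3 to -37.7) to FGF2/Activin (84.95 to 86.6). The second, with 21.2%, separated the 9 inhibitor libraries (20.7 to 35.4) from the 6 others (-47.5 to -43.8), as the naming styles do. On the first component replicate 2 was the lowest library of the combination. It was also the lowest of PD032 (21.5, against 32.2 and 33.0) and of Aurka inh (-5.65, against 14.8 and 20.5). The replicate 2 difference is thus not particular to the combination, and its cause was not tested.

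Gene levels are CPM (counts scaled by library total and TMM factor), a scale not corrected for gene length, so levels are compared between libraries and not between genes. Fold changes are log2 of the combination over FGF2/Activin from edgeR's quasi-likelihood fit over 15223 genes, a positive value meaning higher in the combination. Genes with a Benjamini-Hochberg adjusted p under 0.05 are called higher or lower. The 2 media differed at 10176 genes, 66.8% of those tested: 5025 were higher (33%) and 5151 lower (33.8%) in the combination. At least 2-fold differences numbered 4072 (26.7%), of which 1726 were higher (11.3%) and 2346 lower (15.4%). The libraries of the 2 groups did not overlap at 11059 genes (72.6%), and the median log2 fold change of all genes was 0.01. With so many genes called, a gene list is read by how its counts depart from these shares and by its median. Counts near these shares describe the members and do not set a list apart from the genes as a whole. Without replicate 2 of the combination, 4863 genes were higher and 5069 lower, and 9476 of the 10176 calls were kept in the same direction. In bulk RNA, fewer cells of a type and less RNA per cell cannot be told apart.

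**Figure D1:**
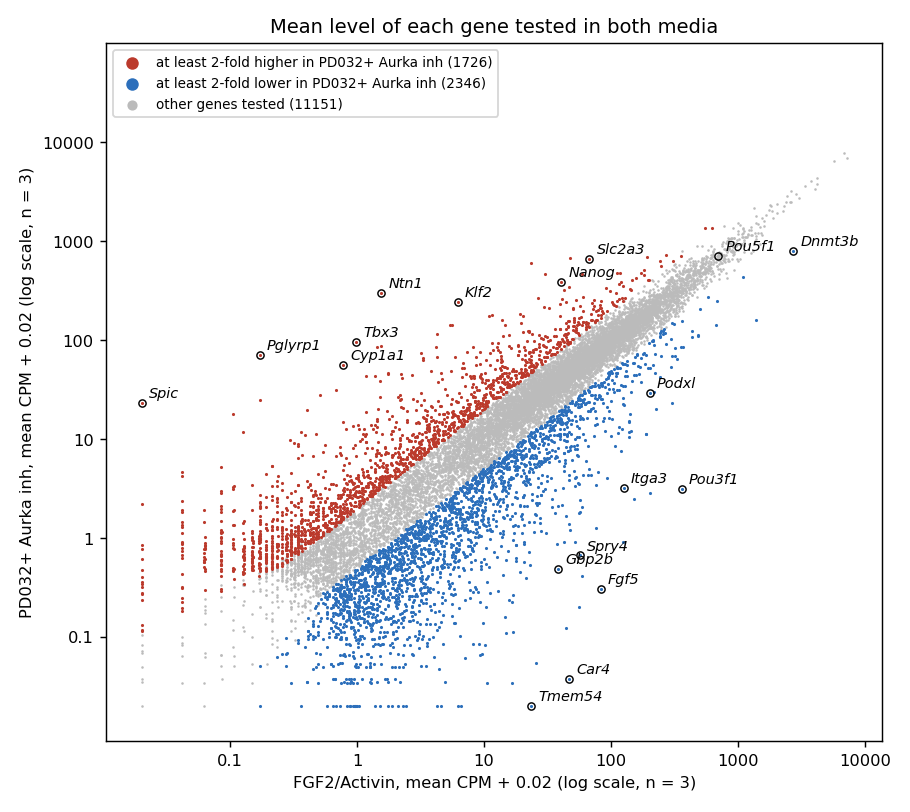
Each point is a gene tested, at its mean CPM + 0.02 in FGF2/Activin (horizontal, log scale) and in PD032+ Aurka inh (vertical, log scale; n = 3 libraries each); red and blue mark the 1726 and 2346 genes at least 2-fold higher and lower. Genes named in the text are ringed: Spic, Ntn1 and Tbx3 lie far above the diagonal, Car4 and Tmem54 far below it, and Pou5f1 on it.

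Naive pluripotency factors were higher almost throughout and had the highest median of the lists. Of 16 genes tested, 14 were higher, 1 was lower and 1 was not called, and the median log2 fold change was 3.28. Tbx3, a T-box factor of naive cells (chr5:119670669-119684724, plus strand of mm10), had 87.6, 112 and 86.9 CPM in the combination, against 0.852, 0.893 and 1.15 CPM in FGF2/Activin (log2 fold change 6.62, SE 0.34, edgeR adjusted p = 1.1e-10). All 3 combination libraries thus lay far above all 3 of FGF2/Activin. Klf2, a Krüppel-like factor that is lost early on leaving the naive state (chr8:72319033-72321656, plus strand), had 239, 252 and 234 CPM in the combination, against 6.23, 5.23 and 7.09 CPM in FGF2/Activin (log2 fold change 5.29, SE 0.17, edgeR adjusted p = 4.4e-13). Prdm14, a repressor of the de novo methyltransferases, had 20.0, 20.2 and 19.2 CPM in the combination, against 0.131, 0.638 and 0.383 CPM in FGF2/Activin (log2 fold change 5.66, SE 0.33, edgeR adjusted p = 4.6e-10). All of its FGF2/Activin libraries were under 1 CPM, and its combination libraries lay close together. Esrrb, an orphan nuclear receptor, averaged 468 ± 23.9 CPM in the combination and 30.3 ± 2.66 CPM in FGF2/Activin (SD, n = 3 each; log2 fold change 3.95, SE 0.13). Klf4, another Krüppel-like factor, averaged 48.3 ± 1.15 CPM in the combination and 3.80 ± 0.168 CPM in FGF2/Activin (log2 fold change 3.67, SE 0.11). Nanog averaged 385 ± 17.5 CPM in the combination and 40.4 ± 3.40 CPM in FGF2/Activin (log2 fold change 3.25, SE 0.11). None of these genes had an overlap between the groups, which was also so for 72.6% of all genes. Among the rest, Nr5a2, Tdh, Tfcp2l1, Fbxo15, Zfp42, Dppa3, Nr0b1 and Klf5 were higher with log2 fold changes between 1.39 and 3.96.

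Gbx2, a homeobox target of LIF, ran the other way. It had 0.737, 0.261 and 0.708 CPM in the combination, against 17.4, 18.2 and 17.6 CPM in FGF2/Activin (log2 fold change -4.91, SE 0.22, edgeR adjusted p = 2.0e-11), and its means in the other groups were 1.90 CPM in PD032, 0.846 CPM in Aurka inh and 26.5 CPM in 2iLif. Its low levels thus went with all 9 inhibitor libraries, the split that the naming styles also make. Dppa5a was not called, at 486, 662 and 480.5 CPM in the combination, against 499, 503 and 533 CPM in FGF2/Activin (log2 fold change 0.08, SE 0.21, edgeR adjusted p = 0.73). The naive list also set the combination apart from each single inhibitor, in comparisons that share its libraries. Against PD032, where 20% of all genes were higher and 23.8% lower, 12 of the 16 were higher and 2 lower. Against Aurka inh, where 18.6% were higher and 16.3% lower, 14 were higher and none lower. Tbx3 averaged 5.64 CPM in PD032, 24.8 CPM in Aurka inh and 181 CPM in 2iLif, and Nanog 121 CPM in PD032, 119 CPM in Aurka inh and 530.3 CPM in 2iLif.

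The core pluripotency factors were split. Of 10 tested, 4 were higher and 5 lower, beside 33% and 33.8% of all genes, with a median of -0.28. Pou5f1, which encodes Oct4, had 623, 768 and 723 CPM in the combination, against 711, 680.4 and 712 CPM in FGF2/Activin, and the groups overlapped (log2 fold change 0.01, SE 0.09, edgeR adjusted p = 0.95). Sox2, its binding partner, had 461, 489 and 470.1 CPM in the combination, against 169.7, 175 and 173 CPM in FGF2/Activin and was higher (log2 fold change 1.46, SE 0.12, edgeR adjusted p = 1.6e-08). Lin28b, an RNA-binding inhibitor of let-7 processing, had 28.6, 19.6 and 28.7 CPM in the combination, against 82.1, 85.4 and 85.4 CPM in FGF2/Activin (log2 fold change -1.71, SE 0.18, edgeR adjusted p = 3.3e-07). Lin28a, Utf1, Dppa4 and Tdgf1, the Nodal co-receptor Cripto, were lower too, with log2 fold changes between -1.22 and -0.57. Sall4 and Zfp281 were higher by 0.15 and 0.14 on the log2 scale, and without FGF2/Activin replicate 1 or replicate 2 only Sox2 of the 4 higher genes kept its call. Without combination replicate 3, 2 were higher.

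Formative and primed genes were lower almost throughout. Of 14 tested, 13 were lower, none higher and 1 not called, with a median of -2.66. Fgf5, the standard marker of the post-implantation epiblast (chr5:98254184-98277030, plus strand), had 0.322, 0.209 and 0.333 CPM in the combination, against 81.7, 80.9 and 85.3 CPM in FGF2/Activin (log2 fold change -8.11, SE 0.31, edgeR adjusted p = 2.8e-12). Fgf15, another FGF ligand, had 0.0460, 0.0522 and 0.208 CPM in the combination, against 45.4, 42.6 and 45.2 CPM in FGF2/Activin (log2 fold change -8.60, SE 0.25, edgeR adjusted p = 1.5e-13). Pou3f1, a POU factor also called Oct6, had 3.64, 2.30 and 3.50 CPM in the combination, against 372, 353 and 356 CPM in FGF2/Activin (log2 fold change -6.82, SE 0.17, edgeR adjusted p = 3.7e-14). At all 3 genes the lowest FGF2/Activin library was far above the highest combination library. Sall2, a zinc finger factor, averaged 2.45 ± 0.570 CPM in the combination and 152 ± 6.42 CPM in FGF2/Activin, and Sox3, a SoxB1 factor, 3.83 ± 0.401 CPM in the combination and 46.6 ± 1.51 CPM in FGF2/Activin. Otx2, the homeobox factor that drives exit from the naive state, averaged 53.7 ± 1.15 CPM in the combination and 169.6 ± 2.92 CPM in FGF2/Activin (log2 fold change -1.66, SE 0.04). Dnmt3b, a de novo DNA methyltransferase, averaged 791 ± 72.6 CPM in the combination and 2713 ± 25.7 CPM in FGF2/Activin (-1.78, SE 0.07), and Dnmt3a, the other one, 161 ± 21.6 CPM in the combination and 1385 ± 25.9 CPM in FGF2/Activin (-3.10, SE 0.11). Zic2 was the member not called (log2 fold change -0.15, SE 0.10, edgeR adjusted p = 0.21). The same list had 12 lower and none higher against PD032 and 11 lower and none higher against Aurka inh. Fgf5 averaged 18.7 CPM in PD032, 2.92 CPM in Aurka inh and 0.0651 CPM in 2iLif, and Otx2 222 CPM in PD032, 106 CPM in Aurka inh and 9.40 CPM in 2iLif.

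**Figure D2:**
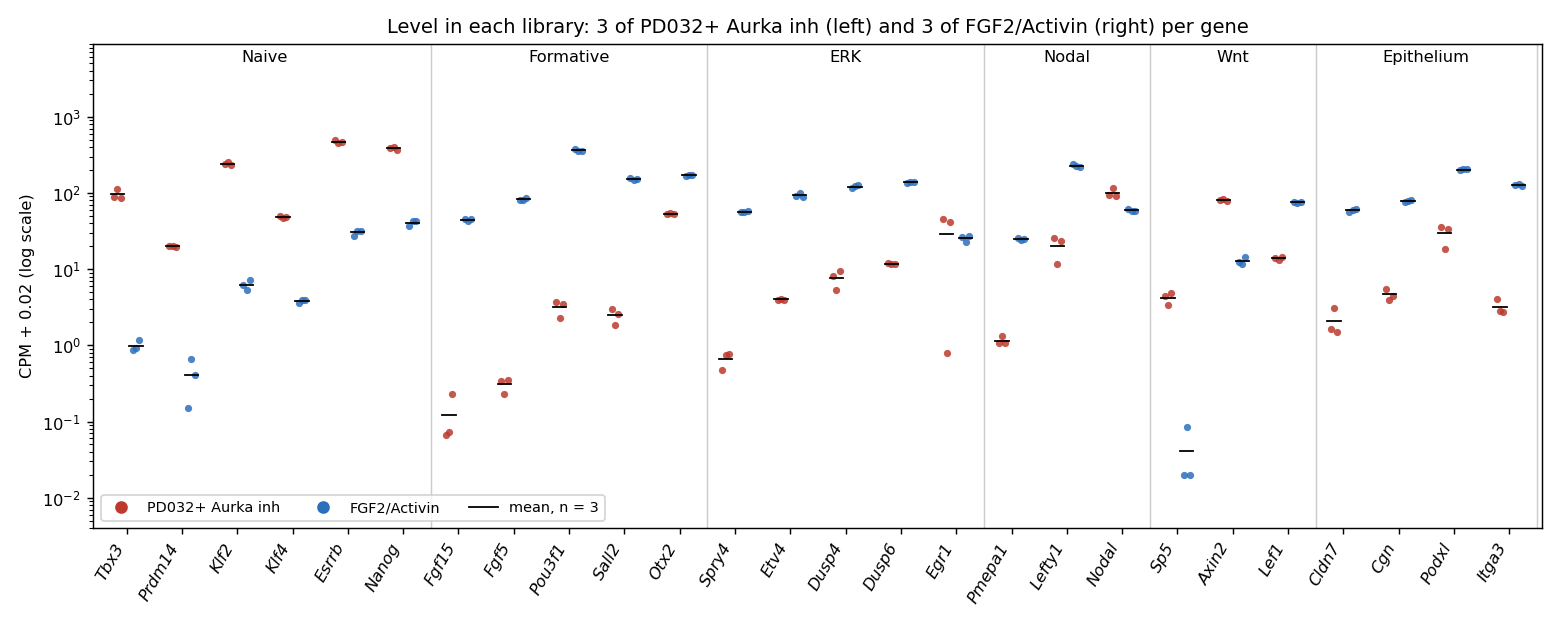
CPM + 0.02 (log scale) in each library, with PD032+ Aurka inh (red) left of FGF2/Activin (blue) for each gene and a bar at the mean of 3; a library with no count stands at 0.02. Naive genes are high on the left of each pair and formative, ERK and epithelial genes high on the right, while the combination libraries of Egr1 spread on both sides of the FGF2/Activin libraries.

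ERK target and feedback genes report on the pathway that PD0325901 blocks and FGF2 feeds. The labels do not say whether PD032 is PD0325901. Of 19 tested, 13 were lower, none higher and 6 not called, with a median of -1.03, and Egr2 was too low to test. Spry4, a Sprouty inhibitor of the pathway, had 0.460, 0.731 and 0.749 CPM in the combination, against 55.4, 56.5 and 58.4 CPM in FGF2/Activin (log2 fold change -6.44, SE 0.15, edgeR adjusted p = 3.1e-14). Dusp6, a phosphatase of ERK, had 11.9, 11.5 and 11.6 CPM in the combination, against 133, 140.5 and 141 CPM in FGF2/Activin (log2 fold change -3.56, SE 0.09, edgeR adjusted p = 4.4e-14). Etv4, an ETS factor induced by FGF, had 3.96, 4.02 and 3.96 CPM in the combination, against 90.2, 99.0 and 88.7 CPM in FGF2/Activin (log2 fold change -4.54, SE 0.09, edgeR adjusted p = 4.1e-15). Each of these 3 genes was far lower in every combination library than in any FGF2/Activin library. Dusp4, a nuclear phosphatase of the same family, had 8.06, 5.33 and 9.37 CPM in the combination, against 115, 122 and 126 CPM in FGF2/Activin (log2 fold change -3.98, SE 0.15, edgeR adjusted p = 3.5e-12). Myc averaged 6.02 ± 0.993 CPM in the combination and 64.0 ± 2.21 CPM in FGF2/Activin (log2 fold change -3.42). Spry1, Dusp5, Fosl1, Dusp7 and Ier3 were lower, with log2 fold changes between -2.23 and -1.03, and Etv5, Spred2 and Ccnd1, the gene of cyclin D1, by -0.41 to -0.15. The call of Ccnd1 was lost without any 1 of the 6 libraries.

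The immediate early genes Egr1 and Fos were not called. Egr1, a zinc finger factor induced within minutes of ERK activation, had 45.9, 0.783 and 41.0 CPM in the combination, against 26.4, 22.7 and 27.3 CPM in FGF2/Activin (log2 fold change 0.22, SE 0.78, edgeR adjusted p = 0.82). Replicates 1 and 3 of the combination lay above all FGF2/Activin libraries and replicate 2 far below them. Without replicate 2 the gene was still not called (log2 fold change 0.77, edgeR adjusted p = 0.25). Fos, a subunit of AP-1, had 7.27, 0.418 and 3.91 CPM in the combination, against 1.90, 1.40 and 1.47 CPM in FGF2/Activin and the same low replicate (log2 fold change 1.30, SE 0.89, edgeR adjusted p = 0.21). Without that replicate Spry2 (log2 fold change 0.21, edgeR adjusted p = 0.03) and Spred1 (log2 fold change 0.20, edgeR adjusted p = 0.026) passed the threshold as higher. Phlda1, another member not called with all 6 libraries, then passed it as lower (log2 fold change -1.24, edgeR adjusted p = 0.034). With all 6 libraries Spry2 had 52.6, 49.8 and 56.1 CPM in the combination, against 46.5, 48.6 and 45.5 CPM in FGF2/Activin (log2 fold change 0.17, SE 0.07, edgeR adjusted p = 0.051) and Spred1 had 111, 99.7 and 113 CPM in the combination, against 94.6, 98.8 and 99.0 CPM in FGF2/Activin (log2 fold change 0.15, SE 0.07, edgeR adjusted p = 0.08).

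Spry4, Dusp6 and Etv4 were closer in the combination to their means in PD032 than to those in the other groups. Spry4 averaged 0.149 CPM in PD032, 17.1 CPM in Aurka inh and 43.6 CPM in 2iLif. Dusp6 averaged 11.996 CPM in PD032, 43.5 CPM in Aurka inh and 33.0 CPM in 2iLif, and Etv4 1.44 CPM in PD032, 45.3 CPM in Aurka inh and 28.6 CPM in 2iLif. Against PD032 the list had 8 genes higher and 4 lower, and against Aurka inh 13 lower and none higher. Spry4 was higher than in PD032 (log2 fold change 2.14 against PD032, edgeR adjusted p = 4.6e-04) and yet had the list's most negative fold change against FGF2/Activin.

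FGF ligands and receptors changed in both directions, with 3 of 9 tested higher and 4 lower, beside 33% and 33.8% of all genes. Fgf4, the ligand that ES cells make themselves, had 161, 179.9 and 149.7 CPM in the combination, against 259, 252 and 256 CPM in FGF2/Activin (log2 fold change -0.64, SE 0.10, edgeR adjusted p = 1.8e-05). Fgfr1, the main receptor of the epiblast, was not called, at 104, 94.0 and 102 CPM in the combination, against 113, 105 and 107 CPM in FGF2/Activin (log2 fold change -0.12, SE 0.06, edgeR adjusted p = 0.11). Fgfr2, a receptor linked to primitive endoderm and trophoblast, had 40.7, 28.5 and 41.3 CPM in the combination, against 14.0, 14.7 and 14.1 CPM in FGF2/Activin and was higher (log2 fold change 1.37, SE 0.12, edgeR adjusted p = 5.7e-08). Fgf8 had 2 counts over the 3 combination libraries against 110 in FGF2/Activin, a ratio of 77.1 for FGF2/Activin over the combination (95% interval 20.8 to 645, covering counting error only). Fgfr3, another receptor, was lower (log2 fold change -2.66), and Klb, the co-receptor β-Klotho, higher (2.54), both under 2 CPM in every library of the 2 groups; the call of Klb was lost without combination replicate 2 or FGF2/Activin replicate 2. Without replicate 2 the list had 2 higher and 3 lower.

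Among Nodal and Activin pathway genes, the feedback genes and other targets named here were lower, and ligands and receptors were mixed. Of 17 tested, 6 were higher and 11 lower, with a median of -0.50. Lefty1, a Nodal antagonist and direct target, had 25.6, 11.5 and 23.6 CPM in the combination, against 237, 224 and 216 CPM in FGF2/Activin (log2 fold change -3.46, SE 0.25, edgeR adjusted p = 6.1e-09), and without replicate 2 its log2 fold change was -3.19. Lefty2, its neighbour and relative, had 12.8, 6.11 and 12.4 CPM in the combination, against 143, 136 and 137 CPM in FGF2/Activin (log2 fold change -3.71, SE 0.18, edgeR adjusted p = 3.8e-11). Replicate 2 was the lowest combination library at both genes, and all 3 lay below FGF2/Activin. Pmepa1, a feedback inhibitor of the SMADs, had 1.06, 1.31 and 1.04 CPM in the combination, against 25.6, 23.9 and 24.6 CPM in FGF2/Activin (log2 fold change -4.45, SE 0.24, edgeR adjusted p = 1.6e-10). Smad7, the inhibitory SMAD, averaged 16.4 ± 2.45 CPM in the combination and 64.4 ± 3.25 CPM in FGF2/Activin, and Skil, a repressor that SMADs induce, 111 ± 17.4 CPM in the combination and 483 ± 19.4 CPM in FGF2/Activin. Inhbb, an activin subunit, had 2 counts in the combination against 29 in FGF2/Activin, a ratio of 20.3 for FGF2/Activin over the combination (95% interval 5.14 to 176).

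The ligand Nodal had 94.8, 115 and 90.4 CPM in the combination, against 61.5, 57.9 and 57.9 CPM in FGF2/Activin and was higher (log2 fold change 0.76, SE 0.10, edgeR adjusted p = 3.7e-06). Gdf3, a related ligand, averaged 146 ± 2.71 CPM in the combination and 63.3 ± 0.745 CPM in FGF2/Activin and was higher too (log2 fold change 1.20). The receptors Acvr1b and Acvr2a and the transducer Smad3 were higher by 0.44 to 0.76 on the log2 scale. Acvr2b, Foxh1 and Smad2 were lower, with log2 fold changes between -0.50 and -0.17. Lefty1 averaged 2.32 CPM in PD032, 14.3 CPM in Aurka inh and 0.547 CPM in 2iLif. Lefty1 was thus above its means in PD032 and 2iLif and below its level in FGF2/Activin. Pmepa1 averaged 2.70 CPM in PD032, 0.904 CPM in Aurka inh and 9.19 CPM in 2iLif, which put all 9 inhibitor libraries below the other 6.

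Wnt target and factor genes had more higher than lower calls. Of 15 tested, 8 were higher and 4 lower, with a median of 0.59. Without 1 library 6 or 7 were higher, and 6 with RLE or library-size scaling, DESeq2 or the 6 libraries alone, and 4 were lower in each. The median lay between 0.23, with the 11 genes tested over the 6 libraries alone, and 1.11, with DESeq2 or no filter (16 genes). Axin2, the feedback inhibitor most widely used as a readout of β-catenin (chr11:108920349-108950783, plus strand), had 79.9, 82.4 and 77.9 CPM in the combination, against 12.5, 11.6 and 14.2 CPM in FGF2/Activin (log2 fold change 2.65, SE 0.08, edgeR adjusted p = 4.4e-13). Sp5, a zinc finger target of β-catenin, had 4.47, 3.39 and 4.79 CPM in the combination, against 0, 0.0638 and 0 CPM in FGF2/Activin. This came to 277 counts against 1, a ratio of 198 for the combination over FGF2/Activin (95% interval 35.2 to 7832). Notum, a secreted Wnt inhibitor, had 51.8, 50.7 and 55.5 CPM in the combination, against 6.82, 7.40 and 5.88 CPM in FGF2/Activin (log2 fold change 2.97, SE 0.14, edgeR adjusted p = 3.7e-11), and Sp8, a relative of Sp5, averaged 6.94 ± 1.29 CPM in the combination and 1.89 ± 0.491 CPM in FGF2/Activin. Cdx1, a caudal homeobox gene, had 19 counts against 1, a ratio of 13.6 for the combination over FGF2/Activin (95% interval 2.15 to 563). All of these were higher in each combination library than in any FGF2/Activin library. Lef1, a TCF/LEF factor, went the other way, at 13.9, 13.3 and 14.3 CPM in the combination, against 77.1, 72.9 and 75.5 CPM in FGF2/Activin (log2 fold change -2.44, SE 0.08, edgeR adjusted p = 8.7e-13). Tcf7l1, the TCF/LEF repressor also called Tcf3, averaged 207 ± 8.31 CPM in the combination and 137 ± 4.05 CPM in FGF2/Activin and was higher (log2 fold change 0.59). Ctnnb1, the β-catenin gene, was lower, with a log2 fold change of -0.29. The list's members Nkd1 and Tcf7 were lower too. Without combination replicate 2 their log2 fold changes were -1.62 (edgeR adjusted p = 1.5e-04) and -0.33 (edgeR adjusted p = 4.7e-04).

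Axin2 and Sp5 also differed between the inhibitor groups. Axin2 averaged 4.11 CPM in PD032, 97.2 CPM in Aurka inh and 124 CPM in 2iLif, and the combination stood above PD032 (log2 fold change 4.29 against PD032, edgeR adjusted p = 1.3e-14). Sp5 averaged 0 CPM in PD032, 13.3 CPM in Aurka inh and 65.4 CPM in 2iLif. Against PD032, 10 of the 15 genes were higher and 4 lower, and against Aurka inh 2 were higher and 6 lower. The promoter of Sp5 was the 1 promoter, of 12 found for the list's 16 genes in RefSeq's table for GRCm38.p6, with the TCF/LEF letters ATCAAAG or, on the other strand, CTTTGAT. They occur in 1006 of 27025 promoters (3.72%), so the match is a description and not a site. The promoter (chr2:70474673-70474972, plus strand, from 250 bases before to 50 after the start) is shown 5′ to 3′ with the match in capitals because Sp5 had the list's largest ratio.
Sp5: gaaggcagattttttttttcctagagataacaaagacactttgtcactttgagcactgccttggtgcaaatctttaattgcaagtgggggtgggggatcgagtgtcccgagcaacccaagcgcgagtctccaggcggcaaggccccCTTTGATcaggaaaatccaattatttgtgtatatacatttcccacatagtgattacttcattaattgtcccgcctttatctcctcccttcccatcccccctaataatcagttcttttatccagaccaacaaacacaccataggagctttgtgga

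LIF and STAT3 genes were mixed, with 5 of 12 tested higher, 6 lower and a median of -0.15. Of all genes, 33% were higher and 33.8% lower. The receptor chains Lifr and Il6st, which encodes gp130, were higher: Lifr averaged 87.0 ± 2.97 CPM in the combination and 18.6 ± 1.505 CPM in FGF2/Activin and Il6st 234 ± 13.04 CPM in the combination and 39.3 ± 3.32 CPM in FGF2/Activin. Socs3, the feedback inhibitor of STAT3, had 0.184, 0.366 and 0.167 CPM in the combination, against 2.23, 2.36 and 2.17 CPM in FGF2/Activin and was lower (log2 fold change -3.25, SE 0.59, edgeR adjusted p = 1.4e-04). Neither medium held added Lif by its label, and Socs3 averaged 133 CPM in 2iLif, which does. Junb, Bcl3, Myd88 and Pim3 were lower, with log2 fold changes between -2.21 and -0.62.

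BMP and Id genes showed 2 higher and 4 lower of 11 tested, beside 33% higher and 33.8% lower of all genes. The Id genes encode inhibitors of basic helix-loop-helix factors. Id2 had 0.598, 0.627 and 0.708 CPM in the combination, against 7.47, 7.79 and 6.52 CPM in FGF2/Activin (log2 fold change -3.47, SE 0.19, edgeR adjusted p = 2.1e-10), while Id3 had 48.4, 41.1 and 47.4 CPM in the combination, against 12.8, 12.95 and 15.5 CPM in FGF2/Activin (log2 fold change 1.73, SE 0.09, edgeR adjusted p = 1.0e-10) and Id4 averaged 6.69 ± 0.903 CPM in the combination and 0.428 ± 0.157 CPM in FGF2/Activin. These genes of one family thus differed in direction. Smad6, an inhibitory SMAD of BMP signalling, was lower (log2 fold change -2.14). Of 14 Notch pathway genes tested, 2 were higher and 6 lower, and in the 6 libraries alone 4 were higher. The ligands Dll1, Dll3 and Dll4 were lower, with log2 fold changes between -2.90 and -2.27: Dll1 averaged 3.05 ± 0.665 CPM in the combination and 14.7 ± 0.228 CPM in FGF2/Activin and Dll3 1.42 ± 0.143 CPM in the combination and 10.7 ± 0.953 CPM in FGF2/Activin. The receptor Notch3 averaged 72.6 ± 4.54 CPM in the combination and 222 ± 4.87 CPM in FGF2/Activin and was lower, while the ligand Jag1 averaged 43.7 ± 4.16 CPM in the combination and 15.5 ± 0.444 CPM in FGF2/Activin and was higher. Lfng, a glycosyltransferase that modifies Notch, was lower (log2 fold change -1.99).

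**Figure D3:**
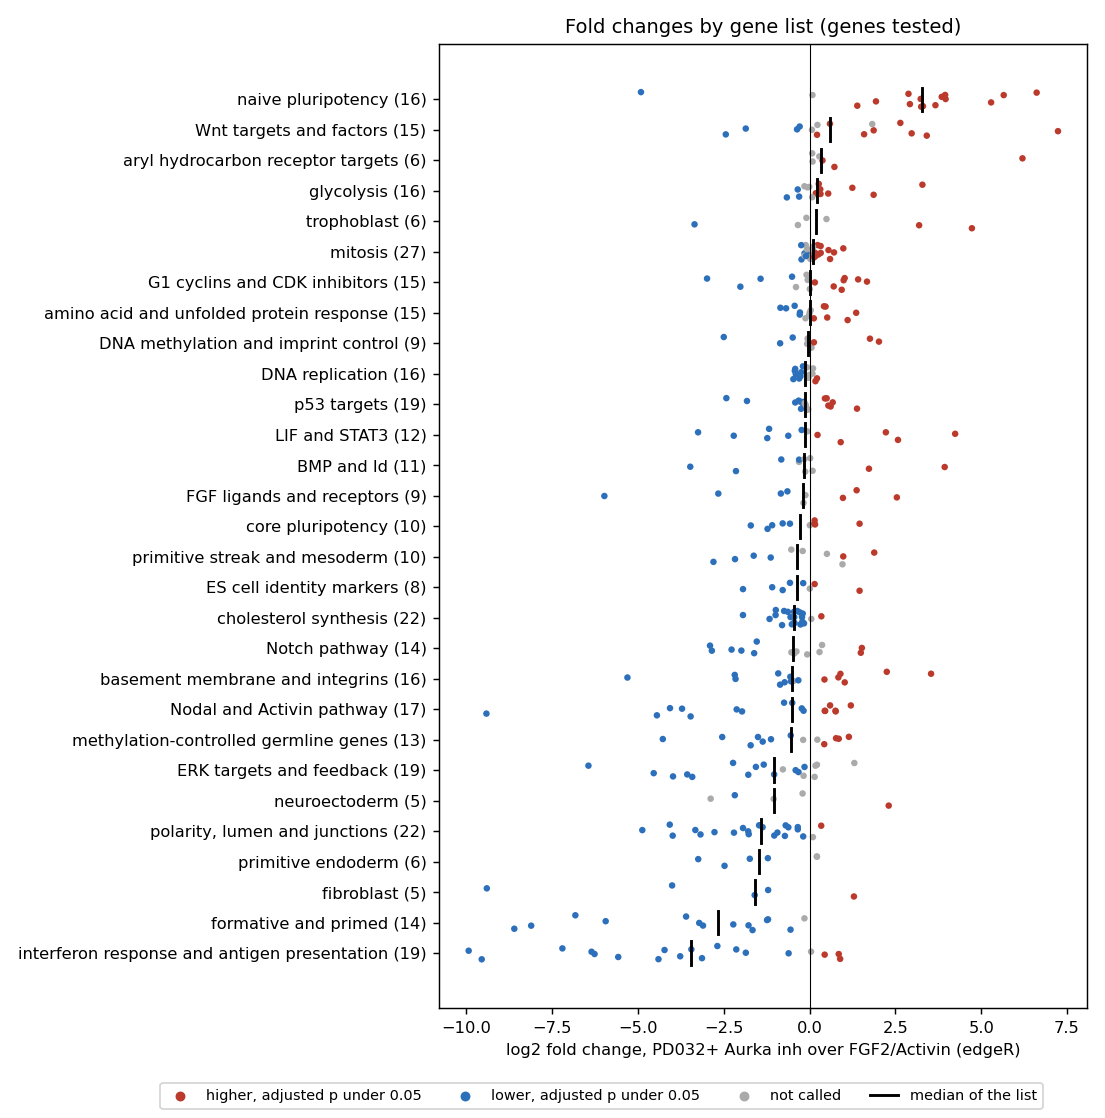
Each row is a gene list with the number tested, each point a gene at its log2 fold change (PD032+ Aurka inh over FGF2/Activin), red called higher, blue called lower, grey not called, and the bar the list's median. The naive list has the highest median, 3.28, and the formative list (-2.66) and the interferon list (-3.44) the lowest; the interferon list was chosen after its values were seen.

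Regulators of DNA methylation differed member by member. With 3 of 9 tested higher and 3 lower, the list was at the shares of all genes (33% and 33.8%). Tet2, a dioxygenase that oxidises methylcytosine, had 42.4, 34.3 and 41.9 CPM in the combination, against 10.4, 12.1 and 12.6 CPM in FGF2/Activin (log2 fold change 1.76, SE 0.14, edgeR adjusted p = 1.5e-08), and Tet3 of the same family had 6.95, 6.37 and 6.45 CPM in the combination, against 38.7, 36.4 and 36.8 CPM in FGF2/Activin (log2 fold change -2.50, SE 0.15, edgeR adjusted p = 7.9e-10). Tet2 was thus higher and Tet3 lower, with no overlap at either, as at 72.6% of all genes. Zfp57, a zinc finger protein that protects imprints, averaged 474 ± 6.79 CPM in the combination and 117 ± 3.51 CPM in FGF2/Activin and was higher (log2 fold change 2.02). Tdg, a glycosylase that removes oxidised methylcytosine, was lower (log2 fold change -0.86). Dnmt1, the maintenance methyltransferase, and Uhrf1, its cofactor, were not called (0.06 and -0.07 on the log2 scale). Germline genes known to be silenced by DNA methylation showed 4 higher and 7 lower of 13 tested. Mael, a factor of the piRNA pathway, averaged 3.89 ± 0.218 CPM in the combination and 22.7 ± 0.748 CPM in FGF2/Activin, and Tdrd1, another, 0.287 ± 0.204 CPM in the combination and 5.78 ± 0.304 CPM in FGF2/Activin. Sycp3, a protein of the meiotic chromosome axis, and Slc25a31, an ADP/ATP carrier of germ cells, were lower, with log2 fold changes of -1.50 and -1.72. Dazl, an RNA-binding protein of germ cells, had 11.5, 29.4 and 13.03 CPM in the combination, against 7.73, 8.49 and 7.92 CPM in FGF2/Activin (log2 fold change 1.15, SE 0.38, edgeR adjusted p = 0.014), with its highest value in replicate 2. Without replicate 2, 1 member was higher and 8 were lower: Dazl (log2 fold change 0.61, edgeR adjusted p = 0.12), Hormad1 (log2 fold change 0.57, edgeR adjusted p = 0.061) and Stk31 (log2 fold change 0.27, edgeR adjusted p = 0.12) were no longer called. Without FGF2/Activin replicate 1, 2 members were higher.

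Mitotic genes differed by small amounts. Of 27 tested, 13 were higher and 5 lower, none by 2-fold, with a median of 0.10. Aurka (chr2:172356190-172370535, minus strand) had 181, 183 and 178 CPM in the combination, against 146, 146 and 141 CPM in FGF2/Activin (log2 fold change 0.32, SE 0.05, edgeR adjusted p = 3.4e-05). The groups did not overlap, as at 72.6% of all genes, and the mRNA of the inhibited kinase does not report its activity. Plk1, the kinase that Aurora A activates, was not called, at 183, 189.7 and 186 CPM in the combination, against 183, 184 and 183 CPM in FGF2/Activin (log2 fold change 0.02, SE 0.04, edgeR adjusted p = 0.67). Bora, the cofactor through which it does so, had 77.0, 85.2 and 78.9 CPM in the combination, against 50.5, 49.5 and 47.1 CPM in FGF2/Activin (log2 fold change 0.71, SE 0.06, edgeR adjusted p = 7.1e-08). Cdc25c, the phosphatase that activates CDK1, averaged 30.2 ± 0.807 CPM in the combination and 15.3 ± 0.392 CPM in FGF2/Activin and had the list's largest fold change (0.98). The centromere proteins Cenpe and Cenpf were higher by 0.55 and 0.60 on the log2 scale. Cdc20, an activator of the anaphase-promoting complex, was lower, with a log2 fold change of -0.24. Without replicate 2 the list had 11 higher and 3 lower, and over all alternatives run 10 to 15 higher and 2 to 6 lower. Without combination replicate 1 or FGF2/Activin replicate 2 or 3, 2 were lower. Against Aurka inh, the group that shares the inhibitor, 1 was higher and 3 were lower.

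DNA replication genes showed 2 higher and 8 lower of 16 tested, again none by 2-fold. Mcm2, a helicase subunit, averaged 522 ± 8.23 CPM in the combination and 702 ± 2.90 CPM in FGF2/Activin, and Rrm2, a subunit of ribonucleotide reductase, 392 ± 15.2 CPM in the combination and 518 ± 4.74 CPM in FGF2/Activin. Cdc6, a licensing factor, and Tyms, thymidylate synthase, were lower, with log2 fold changes of -0.47 and -0.42. Over the alternatives run 1 to 3 members were higher and 8 to 9 lower, with 1 higher without combination replicate 3 or FGF2/Activin replicate 2 or 3. Some G1 regulators had larger fold changes. Ccne1, the gene of cyclin E1, had 109, 94.9 and 117 CPM in the combination, against 441, 427 and 430.4 CPM in FGF2/Activin (log2 fold change -2.02, SE 0.07, edgeR adjusted p = 1.3e-12). Ccnd2, which encodes cyclin D2, averaged 5.31 ± 0.645 CPM in the combination and 42.2 ± 1.88 CPM in FGF2/Activin, and Cdkn1c, the CDK inhibitor p57, 7.13 ± 0.473 CPM in the combination and 19.2 ± 1.49 CPM in FGF2/Activin. Cdkn1b, the CDK inhibitor p27, averaged 104 ± 5.77 CPM in the combination and 52.4 ± 1.93 CPM in FGF2/Activin and was higher, as was Cdkn2a (log2 fold change 1.67). In all, 7 of 15 G1 genes were higher and 4 lower. Of 19 p53 targets, 6 were higher and 8 lower, with a median of -0.14. Both lists stand beside 33% higher and 33.8% lower of all genes. Cdkn1a, the CDK inhibitor p21, had 140.0, 153 and 132 CPM in the combination, against 53.8, 52.6 and 56.4 CPM in FGF2/Activin (log2 fold change 1.38, SE 0.06, edgeR adjusted p = 1.1e-11), while Mdm2, the ligase that degrades p53, had 139, 138 and 139 CPM in the combination, against 159, 159 and 157 CPM in FGF2/Activin (log2 fold change -0.19, SE 0.05, edgeR adjusted p = 0.0039). Pmaip1, the pro-apoptotic Noxa, averaged 11.3 ± 0.627 CPM in the combination and 60.5 ± 2.71 CPM in FGF2/Activin and was lower (log2 fold change -2.42), as was Perp, a membrane protein induced by p53 (-1.82). Sesn2, a sestrin, was higher (0.67). Cdkn1a averaged 62.1 CPM in PD032, 191 CPM in Aurka inh and 130.5 CPM in 2iLif.

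Epithelial genes were lower in the combination. Of 22 polarity, lumen and junction genes tested, 20 were lower and 1 higher, with a median of -1.42, and 13 were lower by at least 2-fold. Podxl, the sialomucin that lines the lumen of the epiblast (chr6:31519488-31563981, minus strand), had 35.8, 18.6 and 34.0 CPM in the combination, against 199, 203 and 203 CPM in FGF2/Activin (log2 fold change -2.77, SE 0.21, edgeR adjusted p = 1.1e-08). Replicate 2 was again the lowest, and without it the log2 fold change was -2.53. Cldn7, a claudin of tight junctions, had 1.61, 3.03 and 1.499 CPM in the combination, against 55.8, 58.8 and 61.8 CPM in FGF2/Activin (log2 fold change -4.87, SE 0.22, edgeR adjusted p = 2.5e-11). Cgn, which encodes cingulin at the cytoplasmic face of the same junctions, had 5.52, 3.97 and 4.45 CPM in the combination, against 76.9, 78.2 and 80.5 CPM in FGF2/Activin (log2 fold change -4.07, SE 0.18, edgeR adjusted p = 2.0e-11). Ocln, the gene of occludin, averaged 1.32 ± 0.335 CPM in the combination and 20.7 ± 1.97 CPM in FGF2/Activin. The claudin Cldn6 averaged 15.3 ± 2.13 CPM in the combination and 138 ± 2.15 CPM in FGF2/Activin. Rab25, a GTPase of apical recycling, averaged 2.62 ± 0.586 CPM in the combination and 26.1 ± 1.29 CPM in FGF2/Activin, and Crb3, an apical Crumbs protein, 4.496 ± 0.195 CPM in the combination and 20.7 ± 0.649 CPM in FGF2/Activin.

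Tjp1, which encodes ZO-1, averaged 118 ± 21.8 CPM in the combination and 226 ± 2.89 CPM in FGF2/Activin (log2 fold change -0.94), and Pard3, a polarity scaffold, 84.6 ± 0.872 CPM in the combination and 107 ± 3.77 CPM in FGF2/Activin (-0.34). Cdh1, the E-cadherin gene, was lower, with a log2 fold change of -0.18. Prkci, an atypical protein kinase C of the apical complex, was the higher member (log2 fold change 0.34). Podxl averaged 373 CPM in PD032, 131 CPM in Aurka inh and 19.7 CPM in 2iLif, so the combination was below both single inhibitors and near 2iLif. Against PD032, 16 of the 22 genes were lower and none higher. Against Aurka inh, 8 were lower and 3 higher.

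Basement membrane genes and their receptors were divided by member, with 6 of 16 tested higher and 9 lower, beside 33% and 33.8% of all genes. Itga3, the α3 chain of a laminin receptor (chr11:95044474-95076801, minus strand), had 4.01, 2.77 and 2.75 CPM in the combination, against 126, 129 and 122 CPM in FGF2/Activin (log2 fold change -5.30, SE 0.15, edgeR adjusted p = 1.5e-13). Lamb1, the laminin β1 chain, averaged 38.2 ± 2.18 CPM in the combination and 173 ± 2.16 CPM in FGF2/Activin and was lower, and Lama1, the laminin α1 chain, averaged 21.6 ± 2.03 CPM in the combination and 4.53 ± 0.509 CPM in FGF2/Activin and was higher. Nid1, which encodes the linker nidogen, had 154, 193 and 135 CPM in the combination, against 13.6, 13.9 and 14.0 CPM in FGF2/Activin (log2 fold change 3.54, SE 0.20, edgeR adjusted p = 2.3e-10). Lamc1, the laminin γ1 chain, averaged 507 ± 27.1 CPM in the combination and 272 ± 1.31 CPM in FGF2/Activin and was higher (log2 fold change 0.90). The chains of one laminin trimer were thus not changed in one direction. Itga3 averaged 11.1 CPM in PD032, 5.37 CPM in Aurka inh and 7.18 CPM in 2iLif, so its high level was a value of FGF2/Activin alone among the 5 groups' means.

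**Figure D4:**
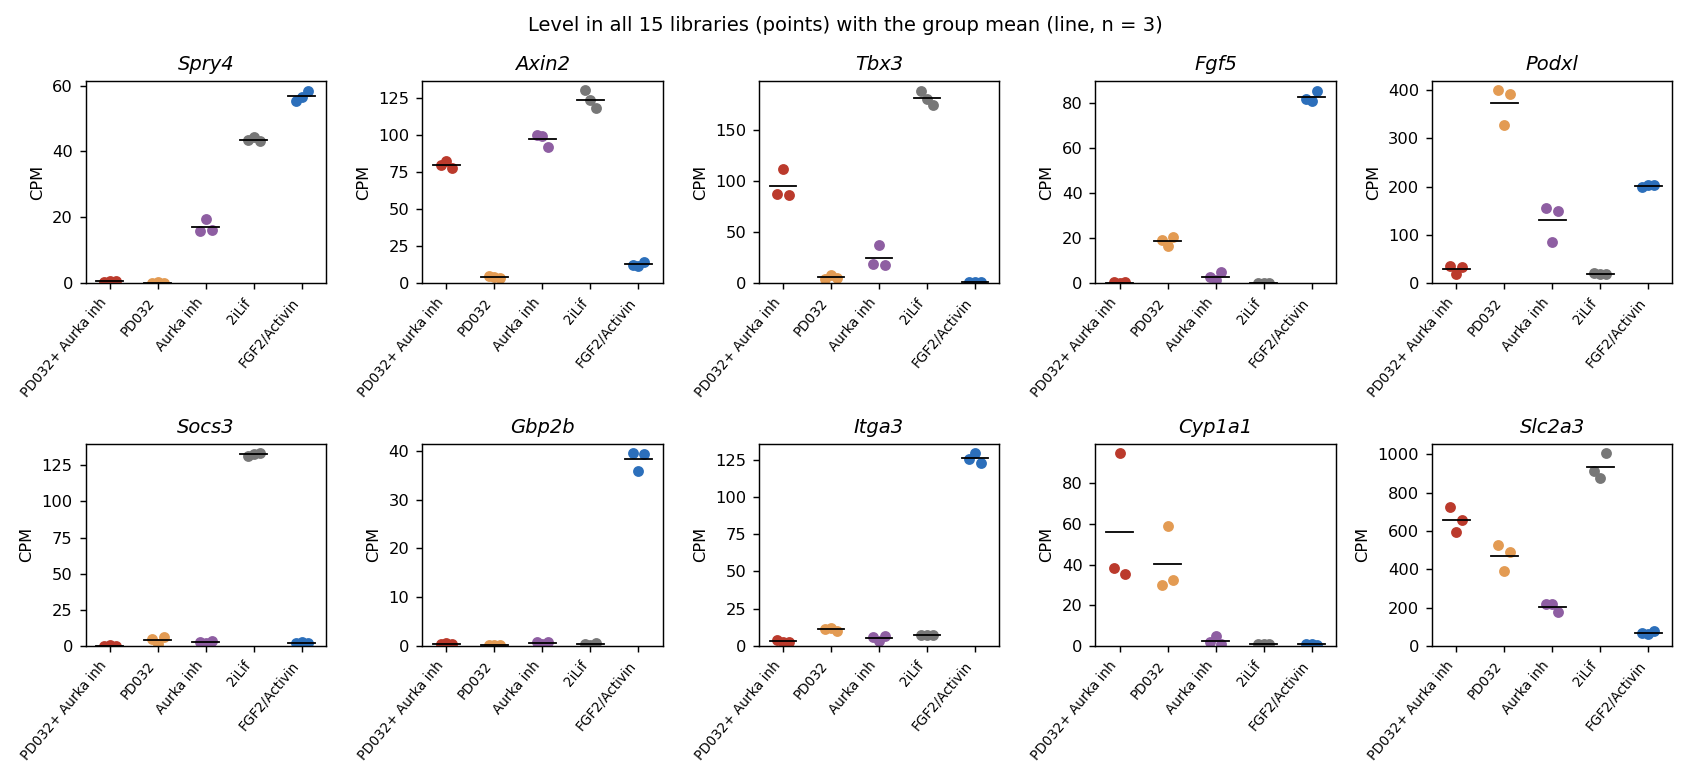
CPM (linear scale from 0) in all 15 libraries, points per library and a line at the mean of 3, groups in the order PD032+ Aurka inh, PD032, Aurka inh, 2iLif and FGF2/Activin. Spry4 is low in both groups with PD032, Axin2 is low in PD032 and FGF2/Activin, Gbp2b and Itga3 are high in FGF2/Activin, and Cyp1a1 is high in both groups with PD032 with a wide spread.

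Cholesterol synthesis genes were lower by modest amounts. Of 22 tested, 20 were lower and 1 higher, with a median of -0.45, and 2 were lower by at least 2-fold. Hmgcs1, the HMG-CoA synthase at the head of the pathway, had 513, 487 and 515 CPM in the combination, against 729, 749 and 748 CPM in FGF2/Activin (log2 fold change -0.55, SE 0.04, edgeR adjusted p = 1.5e-08). Pmvk, a kinase of the mevalonate branch, averaged 37.3 ± 1.65 CPM in the combination and 83.8 ± 2.46 CPM in FGF2/Activin. Mvd and Fdps, enzymes further along that branch, were lower, with log2 fold changes of -0.99 and -0.98. Tm7sf2, a sterol reductase, was the member that was higher (log2 fold change 0.34). Without replicate 2 there were 17 lower and 1 higher. Against PD032 20 were lower and none higher, and against Aurka inh 8 were lower and 2 higher.

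Glycolytic genes showed 9 higher and 3 lower of 16 tested, with a median of 0.21. Slc2a3, the glucose transporter GLUT3 (chr6:122727809-122801640, minus strand), had 725, 593 and 659 CPM in the combination, against 65.6, 61.4 and 75.4 CPM in FGF2/Activin (log2 fold change 3.29, SE 0.12, edgeR adjusted p = 2.3e-12). Pfkp, an isoform of phosphofructokinase, averaged 699 ± 45.3 CPM in the combination and 192 ± 7.05 CPM in FGF2/Activin (log2 fold change 1.87), and Hk1, a hexokinase, 126 ± 12.7 CPM in the combination and 53.2 ± 2.91 CPM in FGF2/Activin (1.25). Ldha, the lactate dehydrogenase A chain, averaged 943 ± 127 CPM in the combination and 1491 ± 32.6 CPM in FGF2/Activin and was lower (-0.66). Slc2a3 averaged 469.5 CPM in PD032, 205 CPM in Aurka inh and 932 CPM in 2iLif. Of 15 genes of the amino acid and unfolded protein responses, 6 were higher and 5 lower, beside 33% and 33.8% of all genes. Asns, asparagine synthetase, averaged 1354 ± 59.0 CPM in the combination and 628 ± 9.37 CPM in FGF2/Activin, and Ddit3, the stress factor CHOP, 17.6 ± 1.38 CPM in the combination and 6.84 ± 0.852 CPM in FGF2/Activin, both higher. Hspa5, the chaperone BiP, averaged 627 ± 38.1 CPM in the combination and 1007 ± 16.7 CPM in FGF2/Activin and was lower, as was Atf3, a stress-induced factor (log2 fold change -0.85).

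Cyp1a1, the cytochrome P450 induced by the aryl hydrocarbon receptor, had 38.2, 94.8 and 35.2 CPM in the combination, against 0.917, 0.830 and 0.511 CPM in FGF2/Activin (log2 fold change 6.20, SE 0.58, edgeR adjusted p = 1.2e-07). Replicate 2 was more than 50 CPM above the others, and without it the log2 fold change was 5.60. The means of the other groups were 40.5 CPM in PD032, 2.52 CPM in Aurka inh and 0.924 CPM in 2iLif, so the groups with PD032 held the high values. Tiparp and Ahr, a repressor of the receptor and the receptor itself, were higher by 0.72 and 0.38 on the log2 scale. The receptor's other 3 targets in the list of 6 were not called.

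Interferon response and antigen presentation genes were low in the combination. This list of 22 was chosen after its values had been seen, so its counts are a description. Of 19 tested, 15 were lower and 3 higher, with a median of -3.44. The summed level of the list was 179 to 182 CPM in the combination and 567 to 594 CPM in FGF2/Activin, beside 202 to 208 CPM in PD032, 242 to 257 CPM in Aurka inh and 310 to 326 CPM in 2iLif. The guanylate-binding proteins are interferon-induced GTPases. Gbp2 had 0.737, 0.992 and 0.958 CPM in the combination, against 41.9, 43.6 and 43.0 CPM in FGF2/Activin (log2 fold change -5.57, SE 0.15, edgeR adjusted p = 6.5e-14), and Gbp2b (chr3:142594847-142619179, plus strand) had 0.322, 0.627 and 0.458 CPM in the combination, against 39.5, 35.9 and 39.5 CPM in FGF2/Activin (log2 fold change -6.35, SE 0.20, edgeR adjusted p = 3.9e-13). Gbp3 averaged 0.0634 ± 0.0697 CPM in the combination and 10.1 ± 1.03 CPM in FGF2/Activin. These neighbours on chromosome 3 were all close to 0 in the combination. They are a family of similar sequence, and how the counting shared reads between members is not given in the sources used here.

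Other members of that list were lower as well. Oasl2, an antiviral protein related to the oligoadenylate synthetases, had 1 count in the combination against 772 in FGF2/Activin, a ratio of 1082 for FGF2/Activin over the combination (95% interval 194 to 42802). Psmb8, a subunit of the immunoproteasome, had no count against 306, which makes it at least 143-fold lower in the combination when set to 3 counts over the group; the list's median is the same with Psmb8 at that bound. Bst2, the membrane protein tetherin, had 13.1, 13.1 and 13.4 CPM in the combination, against 117, 112 and 118 CPM in FGF2/Activin (log2 fold change -3.13, SE 0.08, edgeR adjusted p = 6.2e-14). H2-K1, an MHC class I heavy chain, averaged 4.72 ± 0.498 CPM in the combination and 51.3 ± 1.75 CPM in FGF2/Activin. H2-D1, another, averaged 3.53 ± 0.620 CPM in the combination and 22.9 ± 1.42 CPM in FGF2/Activin. These chains share sequence, so reads may have been split between them. Irf1, an interferon-induced transcription factor, averaged 34.6 ± 3.97 CPM in the combination and 125 ± 5.58 CPM in FGF2/Activin. Stat2 and Irf9, factors of interferon signalling, went the other way and were higher by 0.44 and 0.85 on the log2 scale. Gbp2b averaged 0.155 CPM in PD032, 0.646 CPM in Aurka inh and 0.393 CPM in 2iLif and Irf1 18.2 CPM in PD032, 35.9 CPM in Aurka inh and 46.9 CPM in 2iLif.

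The core of the interferon-stimulated response element, GAAA followed after any 2 bases by a further GAAA (on the other strand, TTTC and TTTC with the same gap), was searched in the same promoter table. These letters occur in 943 of 27025 promoters (3.49%) and in 11 of the 20 promoters matched for the list. Promoters of 5 lower members that hold them are shown from 250 bases before to 50 after the start, 5′ to 3′ along the gene's strand, with every match in capitals (overlapping matches run together). They are Gbp2 at chr3:142620413-142620712, Gbp3 at chr3:142559794-142560093, Gbp2b at chr3:142594597-142594896 and Ifit1 at chr19:34640639-34640938, all on the plus strand of GRCm38.p6, and Isg15 at chr4:156200769-156201068 on the minus strand. A match says only that the letters are present.
Gbp2: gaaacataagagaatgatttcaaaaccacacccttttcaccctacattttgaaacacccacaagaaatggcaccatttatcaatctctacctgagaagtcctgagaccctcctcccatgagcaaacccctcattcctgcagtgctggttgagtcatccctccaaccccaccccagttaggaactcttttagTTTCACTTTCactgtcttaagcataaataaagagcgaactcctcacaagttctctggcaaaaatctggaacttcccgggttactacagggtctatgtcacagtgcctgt
Gbp3: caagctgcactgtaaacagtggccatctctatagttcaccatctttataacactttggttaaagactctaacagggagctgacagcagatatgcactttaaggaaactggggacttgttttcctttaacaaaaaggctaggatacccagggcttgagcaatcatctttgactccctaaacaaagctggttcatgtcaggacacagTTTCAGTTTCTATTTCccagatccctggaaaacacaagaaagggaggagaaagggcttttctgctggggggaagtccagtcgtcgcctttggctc
Gbp2b: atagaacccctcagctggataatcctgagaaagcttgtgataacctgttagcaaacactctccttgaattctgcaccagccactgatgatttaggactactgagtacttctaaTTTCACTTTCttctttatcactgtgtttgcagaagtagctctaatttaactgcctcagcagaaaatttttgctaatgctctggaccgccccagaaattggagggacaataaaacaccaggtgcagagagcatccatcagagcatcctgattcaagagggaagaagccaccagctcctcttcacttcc
Ifit1: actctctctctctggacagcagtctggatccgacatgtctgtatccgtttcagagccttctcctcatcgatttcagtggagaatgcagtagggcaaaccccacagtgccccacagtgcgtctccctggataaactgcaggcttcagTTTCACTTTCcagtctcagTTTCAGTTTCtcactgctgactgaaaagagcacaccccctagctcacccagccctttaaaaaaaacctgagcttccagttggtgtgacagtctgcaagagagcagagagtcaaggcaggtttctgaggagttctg
Isg15: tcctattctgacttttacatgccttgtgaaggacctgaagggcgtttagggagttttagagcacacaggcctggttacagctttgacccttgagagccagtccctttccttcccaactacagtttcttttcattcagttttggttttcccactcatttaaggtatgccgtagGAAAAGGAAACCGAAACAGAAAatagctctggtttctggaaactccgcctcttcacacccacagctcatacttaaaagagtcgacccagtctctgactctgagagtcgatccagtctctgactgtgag
Ifit1, an antiviral RNA-binding protein, had 1 count in the combination against 79 in FGF2/Activin, and Isg15, a ubiquitin-like modifier, averaged 0.0640 ± 0.0351 CPM in the combination and 1.44 ± 0.354 CPM in FGF2/Activin. Stat2, a higher member, also holds the letters.

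The protein-coding genes with the largest fold changes at 10 CPM or more, whatever their list, were these. Spic, an ETS factor of the PU.1 family (chr10:88674772-88685015, minus strand), had 20.6, 27.9 and 20.4 CPM in the combination, against 0, 0 and 0 CPM in FGF2/Activin. With 1472 counts against none it was at least 350-fold higher in the combination when FGF2/Activin is set to 3 counts over the group. Pglyrp1, a peptidoglycan recognition protein, had 67.3, 82.7 and 62.1 CPM in the combination, against 0.131, 0.255 and 0.0639 CPM in FGF2/Activin (log2 fold change 8.81, SE 0.37, edgeR adjusted p = 1.0e-11). Ntn1, the secreted guidance factor Netrin-1 (chr11:68209364-68400823, minus strand), had 318, 301 and 289.9 CPM in the combination, against 1.77, 1.53 and 1.28 CPM in FGF2/Activin (log2 fold change 7.63, SE 0.13, edgeR adjusted p = 9.7e-16). Its means elsewhere were 4.33 CPM in PD032, 220.1 CPM in Aurka inh and 421 CPM in 2iLif, so PD032 alone was near FGF2/Activin. Mobp, Pla2g4e and Lrrc15 were the next, with log2 fold changes of 7.62, 7.30 and 6.70. Mobp is a myelin protein and Pla2g4e a cytosolic phospholipase.

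On the lower side stood Tmem54, a membrane protein, with no count against 1096, at least 512-fold lower in the combination by the same floor. Car4, a membrane-bound carbonic anhydrase (chr11:84957786-84966044, plus strand), had 1 count against 2178, a ratio of 3053 for FGF2/Activin over the combination (95% interval 547 to 120656). Wt1, a zinc finger factor named for Wilms tumour, had 0.276, 0.261 and 0 CPM in the combination, against 54.8, 56.3 and 56.0 CPM in FGF2/Activin (log2 fold change -8.30, SE 0.26, edgeR adjusted p = 3.2e-13). Rbbp8nl had 1 count against 488. Oasl2, Fgf15 and Fgf5, also lower genes of this ranking, stand with their lists.

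Some genes set the combination apart from FGF2/Activin and from both single inhibitors in the same direction, the last 2 comparisons being within one naming style. Besides Mobp, Pla2g4e and Lrrc15, the next higher genes by the rule were Plagl1, an imprinted zinc finger gene, and Osm, the cytokine oncostatin M. Osm had 26.3, 33.5 and 24.6 CPM in the combination, against 0.393, 0.383 and 0.703 CPM in FGF2/Activin (log2 fold change 5.81, SE 0.31, edgeR adjusted p = 1.3e-10), and averaged 4.85 CPM in PD032, 5.14 CPM in Aurka inh and 40.4 CPM in 2iLif. Plagl1 averaged 13.9 ± 4.31 CPM in the combination and 1.26 ± 0.190 CPM in FGF2/Activin. Besides Tmem54, Car4 and Rbbp8nl, the lower ones were Kif1a, a kinesin of axonal transport, and Pxdc1. Kif1a had 0.460, 0.261 and 0.458 CPM in the combination, against 59.8, 58.8 and 58.9 CPM in FGF2/Activin (log2 fold change -7.18, SE 0.54, edgeR adjusted p = 7.3e-09), and averaged 11.2 CPM in PD032, 9.81 CPM in Aurka inh and 0.638 CPM in 2iLif.

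Defining markers of other cell types were mostly low, and their part in the results above was not tested. Of 10 streak and mesoderm genes tested, 2 were higher and 4 lower, beside 33% and 33.8% of all genes. The summed level of the streak and mesoderm list was 13.5 to 15.8 CPM in the combination and 18.3 to 24.1 CPM in FGF2/Activin. T, the mesoderm factor Brachyury, had 0.921, 0.783 and 1.21 CPM in the combination, against 0.721, 0.511 and 0.256 CPM in FGF2/Activin (log2 fold change 0.98, SE 0.33, edgeR adjusted p = 0.015), a call lost without replicate 3 of either group. Eomes, another T-box factor, averaged 5.89 ± 1.29 CPM in the combination and 12.8 ± 2.35 CPM in FGF2/Activin. Wnt8a, a Wnt ligand, averaged 5.78 ± 1.06 CPM in the combination and 1.57 ± 0.151 CPM in FGF2/Activin and was higher, while Mixl1, Wnt3 and Mesp2, genes of the early streak and mesoderm, were lower, with log2 fold changes between -2.80 and -1.63, the call of Mesp2 being lost without FGF2/Activin replicate 1. The primitive endoderm list summed to 142 to 218 CPM in the combination and 149 to 154 CPM in FGF2/Activin, nearly all from Sparc, and 4 of 6 tested were lower: Dab2, Sox7, Cubn and Gata4, with log2 fold changes between -3.24 and -1.21, the call of Gata4 being lost without FGF2/Activin replicate 2. Gata6 and Sox17, which define that lineage, stayed under 0.5 CPM in every library of both groups and were too low to test. Neuroectoderm markers summed to 3.81 to 6.70 CPM in the combination and 4.02 to 4.78 CPM in FGF2/Activin, and 4 of 11 had no count in the combination. Of 5 tested, Pax6 was higher (2.31 on the log2 scale) and Sox1 lower (-2.18), and without FGF2/Activin replicate 3 a second gene was lower.

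Trophoblast markers summed to 52.1 to 68.2 CPM in the combination and 15.1 to 16.99 CPM in FGF2/Activin. The difference came from Tfap2c, an AP-2 factor also used by naive cells, at 53.9, 31.7 and 52.9 CPM in the combination, against 1.31, 1.91 and 1.98 CPM in FGF2/Activin (log2 fold change 4.73, SE 0.25, edgeR adjusted p = 1.1e-10), and from Tfap2a (log2 fold change 3.19), while Krt7, a keratin, was lower (-3.35). Elf5, Hand1, Gcm1 and Plac1 were too low to test. The 2-cell-like list had 7 of 8 genes without a count in the combination and 5 of 8 in FGF2/Activin. The fibroblast list summed to 1214 to 1524 CPM in the combination and 567 to 580 CPM in FGF2/Activin, almost all from Fn1, the fibronectin gene, which ES cells express too (log2 fold change 1.29). Dcn, the gene of decorin and a defining fibroblast marker, had no count in the combination against 212 in FGF2/Activin, at least 99.1-fold lower in the combination by the floor of 3 counts. Col1a2, a fibrillar collagen chain, averaged 0.127 ± 0.0814 CPM in the combination and 2.08 ± 0.287 CPM in FGF2/Activin, and Twist1 and Thy1 were lower too. ES cell identity genes summed to 2896 to 3123 CPM in the combination and 3635 to 3712 CPM in FGF2/Activin (2 higher and 5 lower of 8, with 1 higher without FGF2/Activin replicate 1 or 2). Pou5f1, Sox2 and Cdh1 were abundant in all 6 libraries. Epcam had the list's most negative log2 fold change, -1.94, and without combination replicate 2 it was -2.01 (edgeR adjusted p = 1.5e-12).

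Gene types were called unequally. Of 61 small nucleolar RNA genes tested, 44 were higher and none lower. Of 32 RNA genes at bidirectional promoters, 6 were higher and 10 lower. Long intergenic RNA genes showed 151 higher and 54 lower of 325, and antisense RNA genes 110 higher and 39 lower of 271. Protein-coding genes were close to the overall shares, with 4357 higher (32.7%) and 4789 lower (35.9%) of 13331. Of 756 pseudogenes, 156 were higher and 207 lower. Of those 207 lower pseudogenes, 123 (59.4%) also separated all 9 inhibitor libraries from the 6 others, against 12.8% of all lower genes and 12.4% of all higher ones. The libraries were selected for poly(A), which most small nucleolar RNAs lack, and reads of pseudogenes can come from their parent genes, so these counts are uncertain. Among 398 genes tested that stand in the lists or were named by rule, 122 were higher and 194 lower. Of these, 18 higher genes and 22 lower genes followed the naming styles in the same way. Cyp1a1, Fgfr2, Dppa3 and Tcf7l1 were among those higher genes, and Gbx2, Pmepa1, Spry4, Tdgf1, Myc, Fgf4, Smad7 and Hspa5 among those lower genes.

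**Figure D5:**
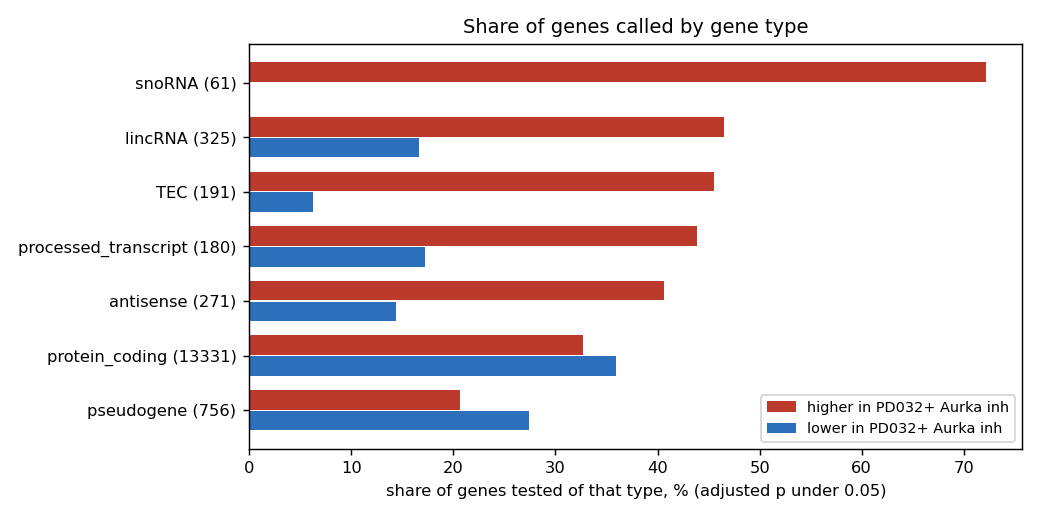
Percentage of tested genes of each gene type (number tested in brackets) called higher (red) and lower (blue) in PD032+ Aurka inh against FGF2/Activin at an adjusted p under 0.05. Types with at least 50 genes tested are plotted. Small nucleolar RNA genes are called higher only, long intergenic and antisense RNA genes more often higher, and protein-coding genes and pseudogenes more often lower.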

How the data were processed

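RNA was poly(A)-selected and libraries were made with a directional kit, per the labels' protocols. Reads were aligned with STAR to mm10 and DESeq2 was used, per the submitters' processing notes; how reads were counted, with which annotation and strand setting, and the versions are not stated there. The authors deposited raw counts per gene, 49585 genes in 15 libraries. Of these, 49326 had a name, type and position in the GENCODE M21 annotation of mm10.

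From these counts, genes with enough counts (edgeR's filterByExpr) were kept, leaving 15223. They were scaled by TMM and fitted over all 15 libraries with edgeR 4.0.16 (glmQLFit and glmQLFTest, R 4.3.3, limma 3.58.1), without a replicate term, and p-values were adjusted by Benjamini-Hochberg over all genes tested. SEs are those of the fitted log2 fold changes. CPM are counts per library total scaled by TMM. Intervals of count ratios are exact 95% and, like the floor of 3 counts over a group, cover counting error only. The depth, 15234243 to 24202544 counts per library, limits precision for genes under about 1 CPM. The fits were tested on simulated data with few genes changed and the same spread in every group. These data have many genes called and unequal spreads, so the simulation does not test the fit under this contrast. Between the combination and FGF2/Activin, replicate numbers did not pair the libraries: deviations of same-numbered libraries correlated at -0.0131, 0.0021 and -0.0315. Pairing among the inhibitor groups was not tested, and the comparisons with PD032 and Aurka inh carry no replicate term.

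The genes named are the 8 higher and 8 lower protein-coding genes with the largest fold changes among those called, at 10 CPM or more and with no overlap; the 5 each that also differ from both single inhibitors; up to 4 called members per list; and a fixed set. Some genes that this rule names are not reported here. Other list members are named to describe their list. The lists and genes were chosen with earlier results of these data known, and the interferon list after its values were seen. Alternatives were another scaling (RLE, library size), no filter, the 6 libraries alone, a replicate block, DESeq2 1.42.0, limma voom, protein-coding genes only and leaving out each library. Promoters came from RefSeq's table for GRCm38.p6, with the first entry of a gene used.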

Additional observations from a re-analysis of the deposited data

How the results depend on the processing

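The 4 counts over all genes (higher and lower, with and without the 2-fold limit) kept within 1.5 times their value in 60 of 60 recomputations. With a replicate block 5234 genes were higher and 5375 lower over all 15 libraries, and 4924 and 4967 over the 6 compared. DESeq2 gave 4807 higher and 5453 lower, and size factors by RLE moved the median of all genes by -0.02 (log2). Leaving out 1 library at a time gave 4620 to 5017 higher and 4766 to 5069 lower, and 8966 to 10149 of the 10176 calls kept their direction over the alternatives run. The lowest, 8966, was with protein-coding genes only, where called genes of other types were not tested. All other alternatives kept at least 9314. Among the genes named, calls lost without 1 library were those of Ccnd1 (any of the 6, adjusted p = 0.065 to 0.12), Zfp281 (FGF2/Activin replicate 1 or 2 or combination replicate 3), Sall4 (FGF2/Activin replicate 1 or 2), T (replicate 3 of either group), Ahr (FGF2/Activin replicate 3), and Stk31 (combination replicate 2 or FGF2/Activin replicate 1). The calls of Klb, Mesp2, Gata4, Dazl and Hormad1 were lost likewise, as given above, as were some calls of list members not named. With no filter on low counts Smad2 and Ccnd1 lost their calls, Ccnd1 also among protein-coding genes alone and Zfp281 with RLE and DESeq2. Spry2 and Spred1 passed in 8 and 6 alternatives. Phlda1 passed without combination replicate 2, and its values in the other alternatives are not given here. Fos passed with no filter (adjusted p = 3.6e-09) and with the block over 6 libraries (0.027), and Egr1 (0.037) and Sparc (7.4e-04) with no filter. With no filter the log2 fold change of Egr1 was 0.2337, while its combination libraries lay on both sides of FGF2/Activin. The p-value of Egr1 in that setting thus does not reflect the spread between its libraries, and the others there are to be read with the same caution. Signs turned for 4 genes that were not called, and the cause was not tested. Egr1 had log2 fold changes of -0.1159 and -0.166 with the replicate block over 15 and 6 libraries, -0.9396 with limma voom, and -0.2197 to 0.7717 leaving out 1 library. Pou5f1 had -0.008 with RLE, -0.0023 with library size alone, -0.0086 with DESeq2 and -0.0577 to 0.1161 leaving out 1 library. Dppa5a had -0.0822 to 0.1865 and Sparc -0.0123 to 0.3525 leaving out 1 library. Depth limits the genes with 0 to 3 counts in a group, whose folds are bounds or ratios.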
